A study of Homo sapiens with 6 samples.

Results

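The SR and hnRNP splicing factor genes were taken as every gene symbol made of SRSF and digits alone or starting with HNRNP. This gave 41 symbols. HNRNPD was left out, because its estimate was marked as failed and listed at 0 in 4 of the 6 libraries, so 40 genes with 83 annotated isoforms remained, of 23834 genes in all. They are 12 SR genes and 28 hnRNP genes, and the latter include pseudogenes, an antisense RNA and a read-through transcript that carry an HNRNP name. Of the 40 genes, 34 reached 1 FPKM in at least 1 library and were tested among 12337 genes. The other 6 (SRSF12, HNRNPCL1, HNRNPCP5, HNRNPA1P10, HNRNPA3P1 and HNRNPKP3) stayed below 1 FPKM in every library. HNRNPA1P10 lies within the span of HNRNPA1, so reads of the shared part could be counted for either, yet HNRNPA1P10 was listed at 5.22e-08 FPKM or less. FPKM, the fragment density of a transcript, is a level scaled to transcript length and library size, so that levels of different genes can be set side by side.

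SR proteins carry RNA recognition motifs and a tail rich in arginine and serine. Bound to exonic enhancers, they recruit the spliceosome and favour the inclusion of an exon, and kinases of the SRPK and CLK families control them by phosphorylation. The heterogeneous nuclear ribonucleoproteins, hnRNPs, coat nascent RNA and often oppose SR proteins by silencing splice sites, and many also act in export, stability or translation. Many of these genes splice their own transcripts, and include a poison exon with a premature stop that sends the RNA to nonsense-mediated decay. In B cells such factors set alternative exons of surface receptors, among them the variable exons of the phosphatase CD45 (PTPRC), which hnRNPLL is known to silence.

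PolyA RNA of 2 lymphoma lines was sequenced with 1 library per line and state and no replicate library. DAUDI stands for Burkitt lymphoma and DOHH2 for follicular lymphoma. Each line was given as a WT culture, as an idelalisib-resistant culture and as an ibrutinib-resistant culture. The drugs block kinases that signal for the B cell receptor, PI3K delta in the case of idelalisib and BTK in that of ibrutinib. How resistance was raised, whether a resistant culture is a clone or a pool, and whether drug was present at harvest are points on which the labels are silent. The comparisons address how the splicing factors differ between resistant and WT cells, between the drugs and between the lines.

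The libraries labelled WT did not group with their lines. Across 12337 genes on the log2(FPKM + 1) scale, Pearson's r was 0.958 for the WT-labelled pair, against 0.698 to 0.723 between a WT-labelled and a resistant library. The resistant libraries had r of 0.943 within DAUDI, 0.968 within DOHH2 and 0.815 to 0.835 between the lines. All 8 B cell markers stood at 1 FPKM or more in each library, with sums from 1002 to 1646 FPKM. The sums hide differences of single markers in either direction. BLK stood at 5.05 and 10.4 FPKM in the WT-labelled pair and at 67.8 to 83.0 FPKM in the resistant libraries. In the same order MS4A1 stood at 435 and 429 FPKM and at 192 to 264 FPKM. EBF1 stood at 22.4 and 14.9 FPKM and at 5.54 to 8.04 FPKM. CD79B stood at 490 and 514 FPKM in resistant DAUDI and at 117 and 64.9 FPKM in resistant DOHH2. Of 9 T and NK cell markers 1 to 3 reached 1 FPKM in a library (sums of 1.49 to 7.66 FPKM), of 7 myeloid markers 1 to 4 (2.01 to 24.3 FPKM) and of 6 stromal and epithelial markers 0 or 1 (0.193 to 2.75 FPKM), and their part in the results was not tested. CD3D was listed at 0 in all 6 libraries, while CD3E was listed at 0 in the WT-labelled pair and stood at 0.166 and 0.365 FPKM in resistant DAUDI and 1.32 and 2.55 FPKM in resistant DOHH2. CD4 stood at 3.51 and 7.30 FPKM in the WT-labelled pair and at 1.95 FPKM or less in the resistant libraries, and CD68 at 16.1 and 18.7 FPKM and at 4.29 FPKM or less. LYZ stood at 15.003 and 13.003 FPKM in resistant DAUDI and at 0.199 FPKM or less elsewhere. Read counts were not used here, so absolute depth is unknown. Coverage per FPKM put the depth at 1.42 times that of the WT-labelled DAUDI library in the ibrutinib-resistant DAUDI library, and at 0.936 to 1.04 times in the others. Every difference from a WT-labelled library is thus a difference from the library labelled WT, and differences of culture, origin and resistance cannot be told apart. Values are given in the order WT-labelled, idelalisib-resistant, ibrutinib-resistant within each line.

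As a class the genes were abundant in all 6 libraries. The 12 SR genes summed to 578, 740 and 762 FPKM in DAUDI, and in DOHH2 to 539, 643 and 648 FPKM. The 28 hnRNP genes summed to 1556, 1837 and 1745 FPKM in DAUDI, and in DOHH2 to 1437, 1621 and 1598 FPKM. Both sums were higher in each resistant library than in both WT-labelled ones, an order that was lost for either family after rescaling by median of ratios, to 617, 732 and 669 in DAUDI and 578, 609 and 636 in DOHH2 for the SR genes, and to 1661, 1816 and 1532 in DAUDI and 1539, 1536 and 1567 in DOHH2 for the hnRNP genes. After rescaling by upper quartile the order was kept for both families. The SR genes then summed to 580, 765 and 695 in DAUDI and 558, 638 and 666 in DOHH2. The hnRNP genes summed to 1561, 1897 and 1593 in DAUDI and 1488, 1610 and 1642 in DOHH2. In bulk RNA, more cells that express a gene and more of its RNA per cell cannot be told apart. By mean level the leading genes were HNRNPA2B1 (221 FPKM), HNRNPA1 (212), HNRNPH1 (159), SRSF5 (147) and HNRNPC (112), followed by HNRNPF (94.7), HNRNPK (88.4), HNRNPM (85.1), SRSF9 (84.8) and HNRNPUL1 (78.5). HNRNPA1P33, an annotated pseudogene, was the lowest of the tested genes at 1.41 FPKM.

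Between the resistant and the WT-labelled libraries, 8 of the 34 genes were higher, 2 were lower and 24 passed in neither direction (limma on log2(FPKM + 1) with the line as a block, at a Benjamini-Hochberg adjusted p under 0.05 across the tested genes). That is 29.4% of them, beside 27.3% of all 12337 genes (14.2% higher and 13.1% lower), so that the class was called about as often as any gene. Their median difference was 0.11, beside 0.12 over all genes. The higher genes were SRSF8, HNRNPA3, HNRNPH3, HNRNPR, SRSF4, HNRNPA1, HNRNPA1L2 and SRSF5, and the lower ones HNRNPLL and HNRNPH2. Of the 11 tested SR genes 3 were higher and 0 lower, and of the 20 tested hnRNP genes that code for protein 5 were higher and 2 lower. The 3 tested pseudogene, antisense and read-through symbols passed in neither direction. All 4 resistant libraries lay above both WT-labelled ones for 14 of the 34 genes (33.3% of all genes did so) and below them for 6 (25.5% of all genes). The test has 2 residual degrees of freedom, and the lines stand in for replicates of a state. Rescaling by median of ratios moved the median of all genes from 0.12 to -0.03. With no filter on low values 5 of the 10 calls were left, with HNRNPLL, HNRNPA1L2, HNRNPH3, SRSF4 and SRSF5 lost, beside 2040 of all 23834 genes called. Leaving out 1 library leaves 1 in its state, so effect sizes are given for those fits. The log2 difference then ran from 2.31 to 2.63 for SRSF8, from 0.65 to 1.42 for HNRNPH3 and from -4.22 to -3.39 for HNRNPLL. All 10 genes kept their direction. None of them kept its call in each such fit. Calls over all genes also fell without a resistant library. Without a WT-labelled library the calls over all genes changed little, yet some of the 10 genes still lost their call.

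**Figure D1:**
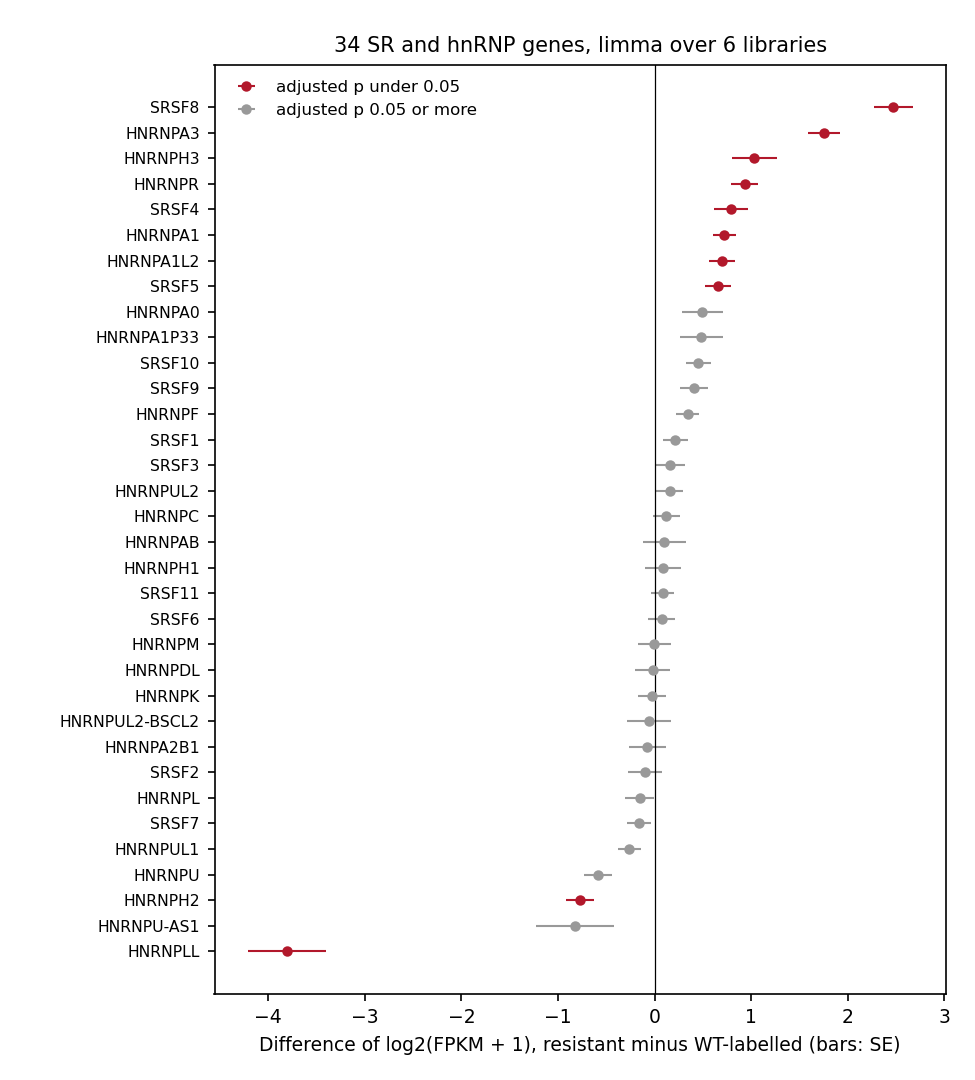
Difference of log2(FPKM + 1), resistant minus WT-labelled, for the 34 tested SR and hnRNP genes, each a point with its standard error from limma over 6 libraries. Genes with an adjusted p under 0.05 are drawn in red. SRSF8 stands highest at 2.47 and HNRNPLL lowest at -3.81, and most of the others lie within 1 of the zero line.

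Of the SR genes, SRSF8 differed most. It lies on chromosome 11 (hg19 chr11:94800041-94804387) and codes for an SR protein closely related to SRSF2. Its level was 2.22, 17.7 and 20.4 FPKM in DAUDI, and in DOHH2 2.37, 17.6 and 14.0 FPKM. The WT-labelled pair was low, the 4 resistant libraries were high, and the groups did not overlap. The mean level was 7.58 times as high in the resistant libraries, and the log2 difference was 2.47 (SE 0.199, adjusted p 0.00635, limma). The coding sequences of SRSF8 and SRSF2 are 84.7% identical, with a longest exact run of 34 bases, so that some reads may be shared between them. SRSF2, a general splicing activator that is mutated in myeloid neoplasms, stood at 82.4, 93.7 and 64.1 FPKM in DAUDI, and in DOHH2 at 64.6, 58.6 and 61.3 FPKM. Those groups overlapped, and SRSF2 did not pass (log2 difference -0.10, SE 0.177, adjusted p 0.699, limma).

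SRSF4 and SRSF5, SR proteins with a pair of RNA recognition motifs, were the other SR genes called higher. SRSF4 stood at 16.0, 21.7 and 32.6 FPKM in DAUDI, and in DOHH2 at 13.6, 25.1 and 26.9 FPKM. SRSF5, the most abundant SR gene here, stood at 105.8, 163 and 199 FPKM in DAUDI, and in DOHH2 at 105.5, 151 and 161 FPKM. For both genes the WT-labelled pair was lowest and did not overlap with the resistant libraries. The log2 difference was 0.79 for SRSF4 (SE 0.171, adjusted p 0.0414, limma) and 0.66 for SRSF5 (SE 0.135, adjusted p 0.0367, limma). In ratio of mean levels this was 1.79 for SRSF4 and 1.59 for SRSF5. SRSF5 did not pass when the trend of variance with level was left out (adjusted p 0.0527, limma).

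The other 8 tested SR genes did not pass. SRSF10, which turns into a splicing repressor when it is dephosphorylated, came nearest, with 34.9, 49.1 and 47.0 FPKM in DAUDI, and in DOHH2 29.1, 38.5 and 42.0 FPKM (log2 difference 0.45, SE 0.128, adjusted p 0.0723, limma). SRSF9 stood at 72.3, 89.8 and 109 FPKM in DAUDI, and in DOHH2 at 65.9, 89.4 and 82.4 FPKM (log2 difference 0.41, adjusted p 0.114, limma). In both genes the resistant libraries lay above the WT-labelled pair without overlap, yet neither passed. SRSF1, the prototype SR protein, and SRSF3, a small SR protein that also acts in mRNA export, had log2 differences of 0.21 and 0.16. SRSF7, another export adaptor, SRSF6 and SRSF11 had log2 differences of -0.16, 0.07 and 0.08. Their adjusted p ranged from 0.276 for SRSF1 to 0.716 for SRSF6 (limma).

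**Figure D2:**
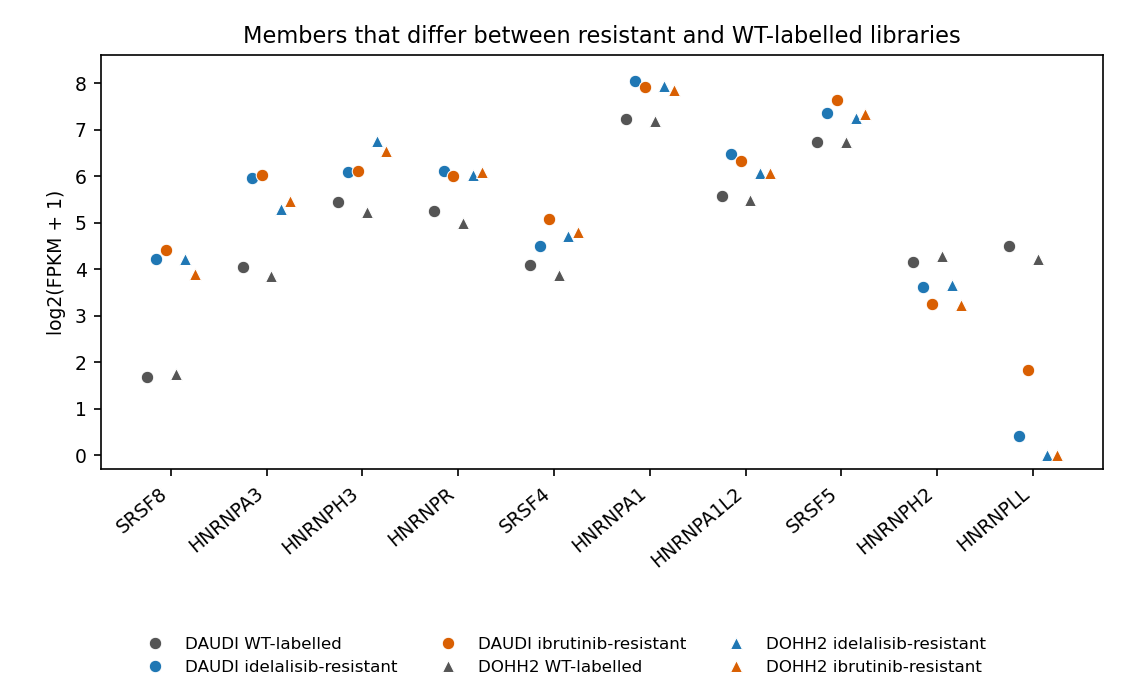
Level of the 10 called genes in each library on the log2(FPKM + 1) scale, with circles for DAUDI, triangles for DOHH2, grey for the WT-labelled libraries, blue for idelalisib-resistant and orange for ibrutinib-resistant ones. In each of the 10 genes the grey points stand apart from the coloured ones, above them in HNRNPLL and HNRNPH2 and below them in the other 8.

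Among the hnRNPs of the A, B and D types, which bind RNA through paired recognition motifs, 3 of 7 tested genes were higher (14.2% of all genes were) and 0 lower (13.1% of all genes). At 7 genes these counts are a description, and the difference from the share over all genes was not tested. HNRNPA3 (hg19 chr2:178077422-178088685) stood at 15.4, 61.7 and 64.4 FPKM in DAUDI, and in DOHH2 at 13.4, 38.5 and 43.2 FPKM. All 4 resistant libraries were well above the WT-labelled pair, and the DAUDI ones were the highest. The log2 difference was 1.75 (SE 0.164, adjusted p 0.00824, limma), and the ratio of mean levels was 3.61. HNRNPA3P1, a processed copy with 96.6% identity to the HNRNPA3 coding sequence, stayed at 0.246 FPKM or less.

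HNRNPA1, the best studied exon silencer of the family, stood at 149.9, 264 and 239.7 FPKM in DAUDI, and in DOHH2 at 145, 244 and 229 FPKM. The WT-labelled pair was again lowest, with no overlap (log2 difference 0.72, SE 0.120, adjusted p 0.0239, limma). HNRNPA1L2, a near copy of it on chromosome 13, stood at 46.8, 87.4 and 79.2 FPKM in DAUDI, and in DOHH2 at 43.9, 66.1 and 65.7 FPKM (log2 difference 0.70, SE 0.137, adjusted p 0.0335, limma). In both genes the idelalisib-resistant DAUDI library was the highest. Their coding sequences are 98.4% identical with an exact run of 174 bases, so how the reads were split between them is uncertain. HNRNPA1L2 did not pass when the libraries were rescaled by median of ratios (adjusted p 0.0645, limma).

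HNRNPA2B1, which also sorts RNA into exosomes and reads modified bases, stood at 246, 264 and 198 FPKM in DAUDI, and in DOHH2 at 210.4, 186 and 223 FPKM. Its mean over the 6 libraries was the highest of the class, while HNRNPA1 was listed above it in each of the 4 resistant libraries. In the idelalisib-resistant DAUDI library they were all but equal, at 263.9 FPKM for HNRNPA1 and 263.5 FPKM for HNRNPA2B1. The groups of HNRNPA2B1 overlapped and it did not pass (log2 difference -0.07, SE 0.189, adjusted p 0.782, limma). HNRNPA0, an A-type hnRNP without introns, stood at 27.1, 29.4 and 30.9 FPKM in DAUDI, and in DOHH2 at 24.1, 42.0 and 45.5 FPKM. The resistant DOHH2 libraries were the high ones, and over both lines the gene did not pass (log2 difference 0.49, adjusted p 0.162, limma). HNRNPAB and HNRNPDL, relatives of hnRNP D, had log2 differences of 0.10 and -0.02. HNRNPD itself had estimates in the idelalisib-resistant DAUDI library (147 FPKM summed over 4 isoforms) and in the ibrutinib-resistant DOHH2 library (115 FPKM), and is not compared.

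The F and H group binds runs of G, and it held a gene of either direction. HNRNPH3 stood at 42.7, 66.9 and 67.9 FPKM in DAUDI, and in DOHH2 at 36.6, 107 and 92.2 FPKM. All resistant libraries were above the WT-labelled pair, and those of DOHH2 were highest (log2 difference 1.03, SE 0.232, adjusted p 0.0446, limma). The call was lost when the libraries were rescaled by median of ratios (adjusted p 0.0661, limma) and when the trend was left out (adjusted p 0.0518, limma). HNRNPH2, an X-linked gene, stood at 16.7, 11.3 and 8.50 FPKM in DAUDI, and in DOHH2 at 18.4, 11.6 and 8.41 FPKM. In both lines it was highest in the WT-labelled library and lowest in the ibrutinib-resistant one, and the groups did not overlap (log2 difference -0.77, SE 0.143, adjusted p 0.0296, limma). HNRNPH1, its paralog with 87.2% identity in the coding sequence, stood at 154, 202 and 198 FPKM in DAUDI, and in DOHH2 at 146, 129.7 and 124 FPKM. The resistant libraries were above the WT-labelled one in DAUDI and under it in DOHH2, and HNRNPH1 did not pass over both lines (log2 difference 0.09, adjusted p 0.741, limma). HNRNPF stood at 83.6, 108 and 108 FPKM in DAUDI, and in DOHH2 at 76.4, 96.7 and 94.8 FPKM, without overlap, and did not pass either (log2 difference 0.35, adjusted p 0.107, limma).

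HNRNPLL, the factor known to silence the variable exons of CD45 in lymphocytes, had the largest difference of the class, and it was downwards. The gene lies on chromosome 2 (hg19 chr2:38790328-38830178). Its level was 21.8, 0.324 and 2.55 FPKM in DAUDI and 17.6 FPKM in the WT-labelled DOHH2 library, and it was listed at 0 in both resistant DOHH2 libraries. The WT-labelled pair was high and every resistant library low, with the ibrutinib-resistant DAUDI library as the highest of those (log2 difference -3.81, SE 0.406, adjusted p 0.0104, limma). Its paralog HNRNPL, with 63.5% identity in the coding sequence and no exact run over 18 bases, stood at 67.4, 66.3 and 69.9 FPKM in DAUDI, and in DOHH2 at 65.8, 50.9 and 53.7 FPKM. HNRNPL did not pass (log2 difference -0.16, SE 0.146, adjusted p 0.456, limma). In the same libraries the PTPRC isoform that lacks the variable exons (NM_080921) took 73.9% and 65.1% of PTPRC in the WT-labelled DAUDI and DOHH2 libraries. In each resistant library it was estimated at no more than 1.48e-05%. The longest isoform, NM_002838, took 20.04%, 99.5% and 99.5% of PTPRC in DAUDI and 28.8%, 99.5% and 99.5% in DOHH2. Whether HNRNPLL had a part in these PTPRC shares was not tested.

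HNRNPR, a relative of SYNCRIP that acts in mRNA transport and splicing, stood at 36.9, 67.8 and 63.1 FPKM in DAUDI, and in DOHH2 at 31.1, 63.9 and 67.4 FPKM. The resistant libraries formed a narrow band well above the WT-labelled pair (log2 difference 0.93, SE 0.140, adjusted p 0.0194, limma). HNRNPM, which binds GU-rich sites and is known for its part in epithelial splicing programmes, stood at 85.0, 84.2 and 97.2 FPKM in DAUDI, and in DOHH2 at 84.9, 88.5 and 70.7 FPKM. Its summed level overlapped between the groups (log2 difference -0.01, SE 0.171, adjusted p 0.981, limma), while its isoform shares did not. HNRNPC, which forms the tetramer that measures nascent RNA, and HNRNPK, which binds C-rich RNA and DNA, had log2 differences of 0.12 (adjusted p 0.538, limma) and -0.03 (adjusted p 0.886, limma).

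HNRNPU, a scaffold attachment factor that binds chromatin and RNA, stood at 95.4, 73.8 and 67.2 FPKM in DAUDI, and in DOHH2 at 97.5, 59.1 and 57.0 FPKM. The WT-labelled pair was highest without overlap, and the gene missed the threshold (log2 difference -0.59, SE 0.142, adjusted p 0.0522, limma). It passed when the libraries were rescaled by median of ratios (log2 difference -0.76, adjusted p 0.0308, limma) or by upper quartile (log2 difference -0.63, adjusted p 0.0488, limma). HNRNPU-AS1, the annotated antisense neighbour, stood at 18.7, 17.8 and 16.2 FPKM in DAUDI, and in DOHH2 at 21.4, 5.39 and 8.51 FPKM. Only the resistant DOHH2 libraries were far below the rest, and over both lines the gene did not pass (log2 difference -0.83, SE 0.403, adjusted p 0.201, limma). HNRNPUL1 and HNRNPUL2, relatives of hnRNP U, had log2 differences of -0.26 and 0.16. The read-through symbol HNRNPUL2-BSCL2 overlaps HNRNPUL2, so reads of the shared part could be counted for either.

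Each drug was also taken alone. With the WT-labelled pair as reference, the idelalisib-resistant libraries had 5 genes higher (9.19% of all genes were) and 1 lower (10.4% of all genes), which is 17.6% of the 34, beside 19.6% of all genes (limma). They were SRSF8, HNRNPA3, HNRNPA1, HNRNPR and HNRNPA1L2, and HNRNPLL. The ibrutinib-resistant libraries had 6 higher (9.99% of all genes were) and 2 lower (9.67% of all genes), which is 23.5% of the 34, beside 19.7% of all genes (limma). They were SRSF8, HNRNPA3, HNRNPA1, HNRNPR, SRSF4 and SRSF5, and HNRNPLL and HNRNPH2. Both comparisons use the same WT-labelled pair. Leaving out any of the 4 resistant libraries removed the calls of both comparisons, among these genes and over all genes alike. Some calls were also lost without a WT-labelled library, which leaves 1 library in that state, while calls over all genes did not fall there. Ibrutinib-resistant against idelalisib-resistant libraries gave 0 calls among the 34 genes (limma, 0 at an unadjusted p under 0.05), beside 0.00811% of all genes (71 of 12337 at an unadjusted p under 0.05). HNRNPH2 had the lowest unadjusted p of them (log2 difference -0.40, SE 0.165, adjusted p 1, limma).

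Within a line each comparison has 1 library per state, so no test was made and a difference of at least 1 on the log2(FPKM + 1) scale was counted. For DAUDI this gave 2 upward and 1 downward difference with idelalisib resistance (31.1% of all genes passed that size), and the same numbers with ibrutinib resistance (34.9%). For DOHH2 it gave 4 upward and 2 downward with idelalisib resistance (31.8%), and 4 upward and 3 downward with ibrutinib resistance (30.6%). SRSF8 and HNRNPA3 were past this size in both lines. HNRNPH3 (1.53 and 1.31) and HNRNPR (1.02 and 1.09) were past it in DOHH2. In DAUDI the differences were 0.64 and 0.66 for HNRNPH3 and 0.86 and 0.76 for HNRNPR. HNRNPLL was lower in each of the 4, HNRNPU-AS1 in the 2 of DOHH2 (-1.81 and -1.24), and HNRNPH2 in the ibrutinib-resistant DOHH2 library (-1.04). Each of these comparisons within a line shares its WT-labelled library with the other.

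Between the resistant libraries of a line, and between the WT-labelled libraries, the genes differed little. Ibrutinib-resistant against idelalisib-resistant DAUDI gave 1 difference of that size, HNRNPLL at 1.42 (3.5% of all genes passed). The same comparison in DOHH2 gave 0 (1.08% of all genes). The WT-labelled DOHH2 library against the WT-labelled DAUDI library gave 0 as well (1.09% of all genes), and HNRNPA1P33 at -0.63 and HNRNPAB at -0.52 differed most. HNRNPLL was thus the only one of the 34 genes past this size in these 3 comparisons.

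Between the resistant DOHH2 and the resistant DAUDI libraries, 0 of the 34 genes passed (limma over 4 libraries with the drug as a block, 7 at an unadjusted p under 0.05), beside 15.5% of all genes, 7.04% higher and 8.48% lower in DOHH2. Over all genes 4438 of 12337 had an unadjusted p under 0.05. The fit has 1 residual degree of freedom. Both DOHH2 libraries lay below both DAUDI libraries for 20 of the 34 genes (39.0% of all genes did so) and above them for 4 (31.5% of all genes), namely HNRNPA0, HNRNPAB, HNRNPC and HNRNPH3. The median difference was -0.20, beside -0.04 over all genes. HNRNPH1 came nearest to the threshold (log2 difference -0.65, SE 0.114, adjusted p 0.0597, limma), followed by HNRNPA3 (-0.62, adjusted p 0.0676), HNRNPU-AS1 (-1.20, adjusted p 0.0796), HNRNPA0 (0.52, adjusted p 0.0872) and HNRNPH3 (0.55, adjusted p 0.0927). Without the drug block 6 of the 34 genes passed, beside 3362 of all 12337 genes (limma). These were HNRNPH1 (adjusted p 0.0164), HNRNPA3 (0.0262), HNRNPA0 (0.0311), HNRNPH3 (0.0397), HNRNPU-AS1 (0.0428) and HNRNPL (0.0494). HNRNPH3 also passed after rescaling by median of ratios (adjusted p 0.0467, limma) or upper quartile (adjusted p 0.0455, limma). Over all 12337 genes 2388 and 2420 passed in these settings.

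Whether resistant and WT-labelled libraries differed by unlike amounts in DAUDI and DOHH2 was tested as an interaction of line and resistance, a test added after the data had been seen. The test has 2 residual degrees of freedom and takes the drugs as replicates of resistance. With 1 WT-labelled library per line, it rests on the spread between the drugs and holds no spread of WT-labelled libraries. It called 0 of the 34 genes (limma, 5 at an unadjusted p under 0.05), beside 9.6% of all genes (3547 of 12337 at an unadjusted p under 0.05). HNRNPA0 had the lowest adjusted p, with a difference of 0.15 in DAUDI and 0.83 in DOHH2 (adjusted p 0.0987, limma). HNRNPH1 (0.37 in DAUDI and -0.20 in DOHH2, adjusted p 0.104, limma) and HNRNPAB (-0.26 and 0.46, adjusted p 0.111, limma) had opposite signs in the lines. HNRNPH3 had 0.65 in DAUDI and 1.42 in DOHH2 (adjusted p 0.111, limma).

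The share of an isoform in its gene's summed FPKM was compared for genes with 10 FPKM or more in each library. Isoform FPKM are estimates from the authors' processing, so all shares given here are estimates, and reads over single exons were not examined. Of 56 isoforms in 23 member genes, 2 passed between resistant and WT-labelled libraries, and both belong to HNRNPM (limma on shares in percent, adjusted over all 3973 isoforms tested, of which 0.805% passed). In HNRNPM the longer isoform, NM_005968, took 28.9%, 57.7% and 57.4% of the gene in DAUDI and 23.6%, 54.9% and 55.0% in DOHH2. It was the minor form in the WT-labelled pair and the major form in each resistant library, with no overlap (difference 29.98 percentage points, SE 1.21, adjusted p 0.0401, limma). NM_031203 took the rest, so that the pair of isoforms is a single measurement. Without any 1 of the 6 libraries the difference of NM_005968 ran from 28.6 to 31.3 points. The call was then lost, as were the calls over all isoforms. It was lost too when shares were transformed by arcsine square root (adjusted p 0.0530, limma).

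The isoforms of HNRNPM differ by a cassette exon of 117 bases, printed here because it carries the clearest isoform difference of the class. It lies on the plus strand at chr19:8465363-8465479 of GRCh38, the build of the GENCODE transcripts it was read from. Exon letters are in capitals, with 20 bases of the adjoining exons of the spliced transcript in lower case on either side.
HNRNPM: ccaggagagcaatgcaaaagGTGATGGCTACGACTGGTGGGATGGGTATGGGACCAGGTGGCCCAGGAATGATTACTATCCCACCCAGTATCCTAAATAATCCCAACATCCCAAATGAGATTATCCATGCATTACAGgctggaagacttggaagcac
The exon length is a multiple of 3 and the exon holds no stop in frame, so both isoforms keep the reading frame.

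The next largest isoform differences did not pass. Without overlap between the groups were 28 of the 56 isoforms, 14 above and 14 below, in 13 of the 23 genes, beside 39.7% of all isoforms tested. In genes with a pair of isoforms the shares mirror each other, so counts of isoforms are not counts of separate measurements. The median absolute difference was 5.46 points, beside 3.77 points over all isoforms. Of the 56 isoforms, 21 in 10 genes had an unadjusted p under 0.05 (limma), beside 998 of all 3973 isoforms tested.

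In HNRNPH3 and HNRNPAB the highest shares of the longer isoform were those of the resistant DOHH2 libraries, and neither gene passed. The share of NM_012207, the HNRNPH3 isoform with an exon of 45 bases, was 37.2%, 43.7% and 47.2% in DAUDI and 45.0%, 68.5% and 70.7% in DOHH2. Both resistant DOHH2 libraries were over 20 points above every other library. Between resistant DOHH2 and resistant DAUDI the share differed by 24.1 points (SE 1.26, adjusted p 0.191, limma), and between resistant and WT-labelled libraries by 16.4 points (adjusted p 0.176, limma). In HNRNPAB the isoform NM_031266, with an exon of 141 bases, took 57.4%, 66.7% and 69.7% in DAUDI and 51.1%, 74.7% and 81.7% in DOHH2. The resistant libraries lay above the WT-labelled pair, and those of DOHH2 were highest (18.9 points between resistant and WT-labelled libraries, adjusted p 0.155, limma).

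In HNRNPC and HNRNPA2B1 the stretch that sets the isoforms apart is shorter. NM_031314, the HNRNPC isoform with a stretch of 39 bases known to tell hnRNP C2 from C1, took 51.2%, 42.8% and 31.9% in DAUDI and 39.3%, 30.1% and 25.2% in DOHH2. Within each line the WT-labelled library had the highest share, yet the idelalisib-resistant DAUDI library was above the WT-labelled DOHH2 one, so the groups overlapped (-12.7 points, SE 1.86, adjusted p 0.0856, limma). NM_031243, the hnRNP B1 form of HNRNPA2B1 with an exon of 36 bases, took 18.1%, 19.5% and 17.0% in DAUDI and 21.2%, 27.5% and 22.4% in DOHH2. The highest shares were those of the resistant DOHH2 libraries.

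The stretches of these 4 genes are printed in capitals, since each separates the isoforms whose shares are given. On either side 20 bases of the spliced transcript are in lower case. Whether the HNRNPC stretch is an exon of its own or part of a longer exon was not checked. On GRCh38 they lie at chr10:68338643-68338687 on the plus strand (HNRNPH3), chr5:178210132-178210272 on the plus strand (HNRNPAB), chr14:21230958-21230996 on the minus strand (HNRNPC) and chr7:26197831-26197866 on the minus strand (HNRNPA2B1).
HNRNPH3: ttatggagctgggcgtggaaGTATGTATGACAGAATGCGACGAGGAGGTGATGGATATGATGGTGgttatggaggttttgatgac
HNRNPAB: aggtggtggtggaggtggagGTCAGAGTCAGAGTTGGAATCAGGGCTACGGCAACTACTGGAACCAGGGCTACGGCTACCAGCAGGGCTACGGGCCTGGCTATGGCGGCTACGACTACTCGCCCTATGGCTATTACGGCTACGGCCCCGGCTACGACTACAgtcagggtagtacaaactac
HNRNPC: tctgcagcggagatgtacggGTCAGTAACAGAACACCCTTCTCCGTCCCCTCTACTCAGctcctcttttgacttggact
HNRNPA2B1: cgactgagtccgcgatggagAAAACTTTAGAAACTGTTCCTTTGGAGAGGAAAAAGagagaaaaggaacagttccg
Each of the 4 lengths is a multiple of 3 without a stop in frame.

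**Figure D3:**
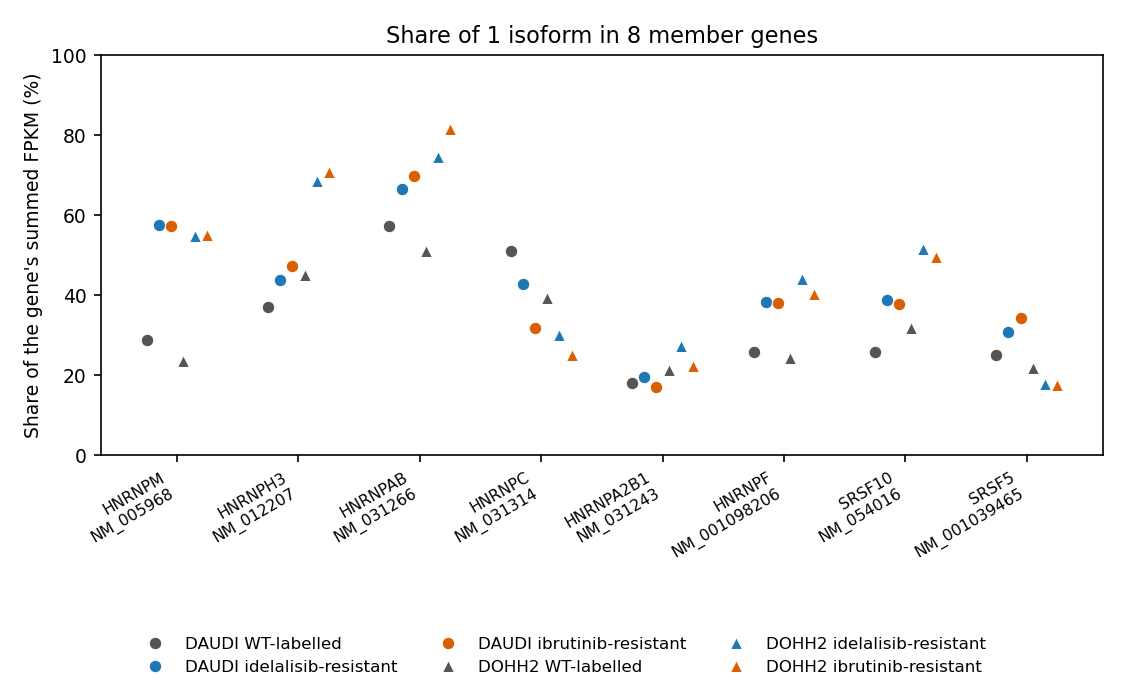
Share of 1 named isoform in the summed FPKM of its gene, in percent, in each library, with circles for DAUDI, triangles for DOHH2, grey for WT-labelled, blue for idelalisib-resistant and orange for ibrutinib-resistant libraries. The HNRNPM isoform is the only one of the 8 that passed, with grey points at 28.9% and 23.6% and the coloured ones between 54.9% and 57.7%.

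SRSF10 and HNRNPF differed in how their transcripts end or begin. The 7 annotated SRSF10 isoforms fall into 2 groups by their 3′ end, at hg19 position 24292937 or 24295573 of chromosome 1. The 5 isoforms that reach 24292937 took 67.8%, 51.4% and 53.3% of SRSF10 in DAUDI and 63.1%, 34.6% and 34.9% in DOHH2. They were the majority in both WT-labelled libraries, and in DOHH2 the minority in both resistant ones. Of single isoforms, NM_006625 differed by -17.1 points (SE 1.498, adjusted p 0.0638, limma), the non-coding NR_034035 by 13.8 points (SE 1.31, adjusted p 0.0681, limma) and NM_054016 by 15.6 points (SE 2.08, adjusted p 0.0771, limma). In HNRNPF, whose isoforms differ in their first exons, NM_001098206 took 25.7%, 38.4% and 38.1% in DAUDI and 24.4%, 44.0% and 40.4% in DOHH2. The resistant libraries lay above the WT-labelled pair (15.2 points, SE 1.96, adjusted p 0.0749, limma).

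Between resistant DOHH2 and resistant DAUDI libraries, 0 of 57 isoforms in 24 member genes passed (limma, 18 at an unadjusted p under 0.05), and of all 4702 isoforms tested 0 passed as well (960 at an unadjusted p under 0.05), that is 0.0%. SRSF5 was among the larger differences. Its longer isoform NM_001039465 took 25.1%, 30.9% and 34.3% in DAUDI and 21.7%, 17.9% and 17.7% in DOHH2, a difference of -14.8 points (SE 1.73, adjusted p 0.193, limma).

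Counted by size within a line, a share difference of at least 20 points was met by 2 isoforms in DAUDI against its WT-labelled library, for either drug, of 65 isoforms for idelalisib (6.31% of all isoforms) and 63 for ibrutinib (6.15%). Both are those of HNRNPM. In DOHH2 there were 8 of 65 isoforms in 4 genes for idelalisib (6.98% of all isoforms) and 8 of 63 in 4 genes for ibrutinib (6.68%). HNRNPM, HNRNPH3 and HNRNPAB were among them with both drugs, joined by HNRNPDL for idelalisib and by HNRNPK for ibrutinib. Between the resistant libraries of a line there were 2 isoforms in DAUDI, both of HNRNPDL (1.14% of all isoforms), and 2 in DOHH2, both of HNRNPK (1.26%). Between the WT-labelled libraries there were 0 of 67 (1.13%). The HNRNPK difference comes from 1 library: NM_031262 took 24.0%, 17.1% and 23.7% in DAUDI and 25.0% and 26.0% in DOHH2, but 0.00093% in the ibrutinib-resistant DOHH2 library.

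Isoforms that RefSeq lists as non-coding, many of them with a premature stop, had a higher median share in these genes than over all genes. Among 323 genes with both kinds of isoform and 10 FPKM or more in every library, their median share was 3.16%, 4.02% and 4.17% in DAUDI and 3.04%, 3.27% and 3.60% in DOHH2. For the 6 SR and hnRNP genes of that set the median was 12.9%, 19.3% and 19.1% in DAUDI and 15.7%, 20.4% and 21.6% in DOHH2. The 6 are SRSF1, SRSF2, SRSF3, SRSF6, SRSF10 and HNRNPDL. These medians are a description of few genes, and no test was made of them.

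By gene, the non-coding share of SRSF10 was 9.20%, 23.0% and 19.96% in DAUDI and 10.6%, 26.6% and 25.1% in DOHH2. All resistant libraries lay above both WT-labelled ones. SRSF2 also had no overlap, with 10.1%, 15.5% and 17.8% in DAUDI and 11.8%, 13.3% and 13.3% in DOHH2. The others overlapped. SRSF6 had 20.05%, 29.3% and 30.5% in DAUDI and 21.4%, 18.9% and 24.1% in DOHH2. SRSF1 had 7.92%, 10.5% and 12.3% in DAUDI and 13.4%, 12.2% and 14.6% in DOHH2. SRSF3 kept between 12.9% and 22.0%, and SRSF8 between 10.9% and 21.5%. SRSF8 stood at 2.22 and 2.37 FPKM in the WT-labelled pair, under the 10 FPKM asked of genes elsewhere, so its shares there are uncertain. HNRNPDL spread most, with 37.3%, 25.2% and 49.98% in DAUDI and 40.4%, 62.0% and 53.8% in DOHH2. RNA with a premature stop is a target of decay, so the shares are those at steady state.

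**Figure D4:**
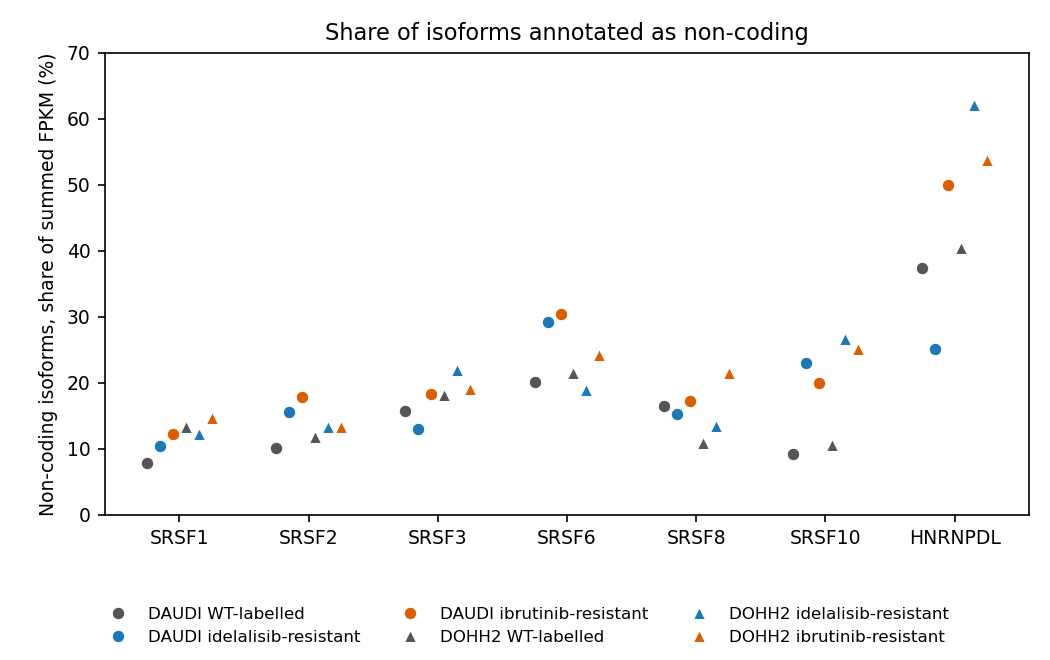
Share of isoforms listed as non-coding in the summed FPKM of 7 SR and hnRNP genes, in percent, in each library, with circles for DAUDI, triangles for DOHH2, grey for WT-labelled, blue for idelalisib-resistant and orange for ibrutinib-resistant libraries. SRSF10 lies at 9.20% and 10.6% in the grey points and between 19.96% and 26.6% in the coloured ones, and HNRNPDL is the most spread. The grey points of SRSF8 come from a gene at 2.22 and 2.37 FPKM.

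The poison exons of SRSF3 and SRSF6 show how such an isoform is made, and their start is printed up to the first stop codon in frame. The stop is in capitals, and the first 20 bases belong to the exon before. The SRSF3 exon lies at chr6:36599821-36600276 and the SRSF6 exon at chr20:43459153-43459420, both on the plus strand of GRCh38.
SRSF3: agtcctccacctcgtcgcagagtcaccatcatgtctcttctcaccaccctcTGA
SRSF6: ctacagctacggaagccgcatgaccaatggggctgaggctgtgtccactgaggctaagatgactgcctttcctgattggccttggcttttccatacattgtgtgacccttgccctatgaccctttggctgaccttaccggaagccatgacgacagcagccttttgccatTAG
The SRSF3 exon is 456 bases long and its TGA starts at base 32. The SRSF6 exon is 268 bases long and its TAG starts at base 150.

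The partners of the SR proteins and hnRNPs held single genes with larger differences than those of the class, such as CELF2 and RBFOX2, while each list was called less often than all genes together (27.3%), a difference that was not tested. The lists had been drawn up with earlier results of these data known. Of 21 tested SR-related proteins, SR kinases and the SR importer, 2 were higher and 0 lower between resistant and WT-labelled libraries (limma), with a median of 0.19. SRRM1, a coactivator that bridges SR proteins and the spliceosome, stood at 19.6, 44.0 and 47.4 FPKM in DAUDI, and in DOHH2 at 18.1, 31.6 and 38.0 FPKM (log2 difference 1.04, SE 0.146, adjusted p 0.0168, limma). CLK1, a kinase that phosphorylates SR proteins in the nucleus, stood at 21.1, 18.1 and 12.0 FPKM in DAUDI, and in DOHH2 at 23.4, 11.4 and 13.2 FPKM, and did not pass (log2 difference -0.68, adjusted p 0.103, limma). SRPK1, their kinase in the cytoplasm, did not pass either (log2 difference 0.68, adjusted p 0.0948, limma).

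Of 42 tested other hnRNPs and regulatory RNA-binding proteins, 7 were higher and 3 lower, with a median of 0.20 (limma). CELF2, a regulator of alternative exons in lymphocytes, stood at 21.6, 0.0238 and 0.0212 FPKM in DAUDI, and in DOHH2 at 19.9, 0.214 and 0.195 FPKM (log2 difference -4.29, SE 0.187, adjusted p 0.00267, limma). RBFOX2, which binds GCAUG, had the opposite pattern, with 0.0164, 15.9 and 19.3 FPKM in DAUDI, and in DOHH2 0.00417, 19.1 and 19.6 FPKM (log2 difference 4.26, SE 0.166, adjusted p 0.00242, limma). CELF2 was thus near 0 in each resistant library and RBFOX2 near 0 in both WT-labelled ones. MBNL3, a muscleblind protein, stood at 3.55, 7.70 and 10.4 FPKM in DAUDI, and in DOHH2 at 2.84, 13.0 and 9.72 FPKM (log2 difference 1.40, SE 0.263, adjusted p 0.0306, limma). Between the resistant lines 2 genes of this list were higher (7.04% of all genes were) and 1 lower (8.48% of all genes) in DOHH2 (limma). CIRBP, the cold-inducible RNA-binding protein, stood at 80.1 and 71.0 FPKM in the resistant DAUDI libraries and at 136 and 124 FPKM in the resistant DOHH2 ones (log2 difference 0.78, adjusted p 0.0451, limma). ESRP1, an epithelial splicing regulator, stood at 0.843 and 1.46 FPKM in the resistant DAUDI libraries and was listed at 0 in the resistant DOHH2 ones (log2 difference -1.09, adjusted p 0.0351, limma).

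Of 50 core spliceosome genes 3 were higher and 6 lower, with a median of -0.03 (limma). PRPF31, a part of the tri-snRNP, stood at 69.7, 13.3 and 11.0 FPKM in DAUDI, and in DOHH2 at 71.3, 12.8 and 12.3 FPKM (log2 difference -2.43, SE 0.136, adjusted p 0.00344, limma). U2AF1L4, a relative of the small U2AF subunit, stood at 22.5, 1.87 and 1.64 FPKM in DAUDI, and in DOHH2 at 20.7, 1.96 and 2.19 FPKM (log2 difference -2.96, adjusted p 0.00390, limma). SNRNP70, the U1 protein that SR proteins contact at the 5′ splice site, stood at 119, 51.9 and 47.8 FPKM in DAUDI, and in DOHH2 at 119.5, 44.2 and 48.8 FPKM (log2 difference -1.29, adjusted p 0.00993, limma). In these 3 genes the WT-labelled pair was high and the 4 resistant libraries were low and close together. SNRNP40, a U5 protein, was higher (log2 difference 0.86, adjusted p 0.0308, limma). SF3B3, a U2 protein, was the only gene of this list that passed between the resistant lines, where 15.5% of all genes passed. It stood at 16.9 and 14.5 FPKM in resistant DAUDI and 31.2 and 30.4 FPKM in resistant DOHH2 (log2 difference 0.93, adjusted p 0.0471, limma).

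Of 15 genes of nonsense-mediated decay and the exon junction complex, which act on the isoforms with a premature stop, 2 were higher and 1 lower, with a median of 0.12 (limma). EIF4A3, the helicase that anchors the exon junction complex, stood at 57.6, 26.8 and 27.7 FPKM in DAUDI, and in DOHH2 at 83.1, 26.0 and 23.7 FPKM (log2 difference -1.38, SE 0.208, adjusted p 0.0194, limma). SMG1, the kinase of UPF1, stood at 8.83, 16.1 and 26.4 FPKM in DAUDI, and in DOHH2 at 10.2, 21.6 and 20.2 FPKM (log2 difference 1.05, SE 0.219, adjusted p 0.0379, limma). MAGOH, a core protein of the complex, was higher (log2 difference 0.68, adjusted p 0.0471, limma). Whether these levels bear on the non-coding shares was not tested.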

How the data were processed

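The 6 cultures gave 1 polyA library each, made with a directional mRNA kit per the labels' protocols. Per the submitters' processing notes the authors used bcl2fastq, cutadapt, TopHat2 and Cufflinks with hg19, without versions. The deposited tables list FPKM for 43490 RefSeq isoforms, which the authors scaled to length and mapped fragments, and, per the file headers, a coverage signal and the isoform length. Isoform FPKM were added up per gene symbol, leaving out 528 isoforms without a gene name and 10 genes with a failed estimate in any library. Genes that reached 1 FPKM in any library were tested. A value of 1 was added before log2, which understates ratios of low genes.

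Libraries were grouped by the labels' line and state. limma 3.58.1 (R 4.3.3; empirical Bayes with trend, two-sided) was fitted with line as a block and state as factor, which pairs libraries by line, on 6 libraries (2 residual and 2 prior degrees of freedom), or with drug as a block on the 4 resistant libraries. The p-values were adjusted by Benjamini-Hochberg over all genes or isoforms tested, with calls at 0.05, and rest on the spread between lines or drugs, not between replicate cultures. Isoform shares were tested for genes at 10 FPKM or more in every library and isoforms at 5% or more in at least 1. The fits were run on simulated data with independent noise, which checks the code and not the p-values of these libraries. Exon sequences were read from GENCODE transcripts of GRCh38, and no coordinates were converted between builds.

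The members and lists were chosen with earlier results of these data known. Named are genes called in a contrast or past a difference of 1 within a line, the 10 most abundant members, up to 4 genes of each further list with the largest difference, isoforms called or past 20 points, and members with a non-coding isoform. Other members are named after their values were seen, to account for the whole class. Alternatives were a pseudocount of 0.1 or 5, other scalings and filters, no trend, no block, and leaving out each library.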

Additional observations from a re-analysis of the deposited data

How the results depend on the processing

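No direction of a called gene turned under any setting tried, and HNRNPA1, HNRNPA3, HNRNPH2, HNRNPR and SRSF8 were called in all 8 settings that kept every library. Between resistant and WT-labelled libraries, where 10 of these genes were called, the number called was 5 with no filter on low values (2040 of all 23834 genes). For idelalisib (6 called) this was 3 with no filter (1403 of 23834). For ibrutinib (8 called) it was 3 with no filter (1403 of 23834), 5 with a pseudocount of 5 (2230 of 12337) and 5 without the trend (2403 of 12337). Leaving a library out removes 1 of 2 residual degrees of freedom and leaves 1 library in a state. No called gene kept its call in each such fit. Without a resistant library the calls over all genes fell as well. Without a WT-labelled library the calls over all genes between resistant and WT-labelled libraries changed little. Some of the 10 called genes still lost their call there. Between the resistant lines 0 became 1 under median of ratios scaling, 1 under upper quartile scaling and 6 without the drug block. Over all 12337 genes 1914 became 2388, 2420 and 3362. Within DAUDI the single difference of 1 or more between the drugs became 0 with a pseudocount of 5, and between the WT-labelled libraries 0 became 1 with a pseudocount of 0.1. The 2 HNRNPM isoforms called became 0 with arcsine square root shares, where 14 of all 3973 isoforms were called. Without any 1 library their calls were lost, as were those over all isoforms. The cause of these changes was not tested. Without the line block, which pairs libraries by line, 10 genes were called between resistant and WT-labelled libraries, as with it (3200 of all 12337 genes). No paired analysis by replicate number was possible because each line and state has 1 library. Leaving out a library could not be fitted for the 4 resistant libraries, which have 1 residual degree of freedom. Depth is unknown without counts, so genes listed at 0 have no lower bound, and levels of near copies such as HNRNPA1 and HNRNPA1L2 depend on how reads were split.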
